A study of Mus musculus with 9 samples.

Results

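The genes described are those of the CD3 complex, the CD4 coreceptor and the first signalling steps below the T cell receptor (TCR), in invariant natural killer T cells of the iNKT1 type from the thymus, liver and spleen. They are 9 genes of the 14004 in the deposited table, chosen by name and not by their values: Cd3e, Cd3d, Cd3g and Cd247, which encode the CD3 epsilon, delta, gamma and zeta chains, Cd4, the kinase genes Lck and Zap70, and the adaptor genes Lat and Lcp2 (SLP-76). All 9 passed the filter on low values. The mice were C57BL/6 and of 1 genotype, Tbx21CreTg;Rosa26-LSL-YFP+/+, with no treatment, so all groups carried a Cre recombinase under the control of Tbx21, the T-bet gene, and a YFP reporter switched on by that Cre. RNA-seq gave 3 libraries per tissue, 9 in all, and the comparisons were between tissues. The series calls the replicates independent without saying whether they are separate animals or pools, so the p-values measure the spread between these libraries. Neither the age of the mice nor the gate used to isolate the cells is given in the sources used here.

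iNKT cells carry a semi-invariant TCR that recognises lipids held by CD1d. The TCR has no signalling domain of its own: the CD3 chains carry the tyrosine motifs that Lck phosphorylates, ZAP-70 docks on those motifs and phosphorylates LAT, and SLP-76 joins LAT to hold the enzymes that start calcium and Ras signalling. CD4 brings Lck to the receptor when it binds major histocompatibility complex class II, a molecule that iNKT cells do not need for recognition of CD1d, and mouse iNKT cells are known to include CD4+ and CD4- cells.

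Values are the authors' normalised read counts, called normalised reads here. Reads recovered from them ran from 3877694 in liver replicate 3 to 39568081 in spleen replicate 3, and the fewest behind any of the 9 genes in any library were 335, for Zap70 in liver replicate 3. The cells' label was checked against its markers: Tbx21 lay between 1386 and 5762 and Zbtb16, the PLZF gene, between 1216 and 3305 in the 9 libraries. Genes listed as markers of other cells were also present, and whether the iNKT1 cells or other cells gave these transcripts was not tested. The 6 measured hepatocyte genes summed to 1390 to 1717 in liver, 110 to 868 in thymus and 0.525 to 40.5 in spleen libraries. The 4 B cell genes used summed to 5260 to 10727 in spleen, 5403 to 7916 in liver and 3157 to 5351 in thymus libraries, most of it Ighm, and Cd79a and Ms4a1 had no read in any thymus library. The 5 natural killer and ILC1 genes summed to 3621 to 9334 in thymus, 570 to 5133 in liver and 286 to 762 in spleen libraries. The 6 myeloid and dendritic genes summed to 3208 to 7003 in thymus, 533 to 2386 in liver and 394 to 2934 in spleen libraries. The 6 immature thymocyte genes summed to 144 to 1401 in thymus, 3853 to 6914 in liver and 3736 to 5889 in spleen libraries, most of the last 2 from Themis. Rag1 was at 486 in thymus replicate 3 and below 1 in the other 8 libraries. Each tissue's replicate 2 showed high Xist (no less than 84543) and few Y-linked reads (6 to 21), and the other 6 libraries had at least 1458 Y-linked reads. Thymus replicate 3 had Xist at 16531 as well. The part of these differences in the results below was not tested, except where a value without a library is given.

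No gene of the 9 passed the threshold in any comparison of tissues, an adjusted p under 0.05 over the 13309 genes tested with limma-trend and Benjamini-Hochberg adjustment. Among all genes few did: 0.323% in liver against thymus, 0.398% in spleen against thymus and 0.015% in liver against spleen, and 0.346% in the F-test of any tissue difference. At an unadjusted p under 0.05 the counts were 2, 3 and 1 of the 9 genes in the pairwise comparisons in that order, where all genes gave 11.6%, 11.7% and 3.03%. In the F-test it was 4 of 9, Cd3e, Cd4, Lat and Lcp2, where all genes gave 9.95%, and their adjusted p-values were 0.324, 0.408, 0.429 and 0.485. Tissues separated without overlap of any library in liver against thymus for 1 gene, Lcp2, in spleen against thymus for 2, Cd3g and Lck, and in liver against spleen for 4, Cd3e, Cd3g, Lck and Lcp2. All genes gave 15.3%, 15.3% and 12.7% for the same measure. The median SE of the log2 fold change was 0.42 for the 9 genes and 1.19 over all genes. The shares over all genes are thus not those of genes measured as closely. The median log2 fold change of the 9 genes was 0.52 in liver against thymus, 0.15 in spleen against thymus and 0.32 in liver against spleen. Over all genes tested it was 0.29, 0.33 and -0.02, so in the limma-trend fit the median gene lay above thymus in both other tissues. This shift depended on the processing. In liver against thymus it was 0.43 with equal library totals, and 0.20 with 10 in place of 1 added to each value. With edgeR and DESeq2 on the recovered reads, the median over all genes was -0.032 and -0.021 in liver against thymus. In spleen against thymus it was smaller still in size with both tools. Both tools scale the libraries so that the typical gene lies near 0, so these medians cannot show whether the shift is real. Values given below relative to the median gene use the limma-trend medians. The comparisons with thymus share the 3 thymus libraries, and log2 fold changes were computed from log2(value + 1).

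**Figure D1:**
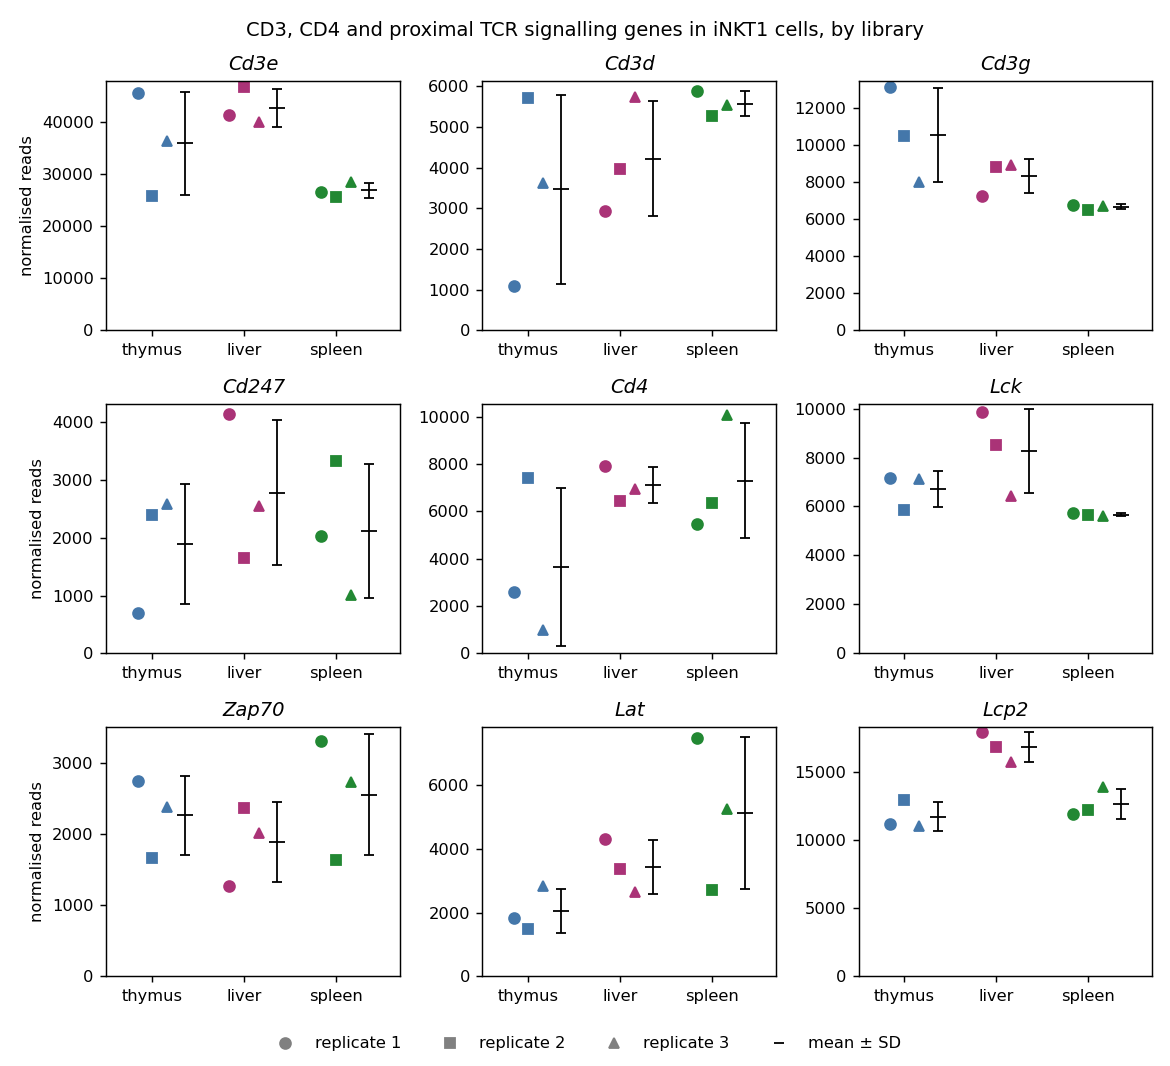
Normalised reads (linear axes from 0) of each of the 9 genes in the 3 thymus, 3 liver and 3 spleen libraries. Symbols mark the replicate number, and the black bar beside each tissue is the mean ± SD of its 3 libraries. The thymus libraries spread most for Cd3d and Cd4, from 1083 to 5711 and from 985 to 7393, while the spleen libraries lie close together for Cd3e, Cd3d, Cd3g and Lck.

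Cd3e, whose product pairs with both the delta and the gamma chain, was the most abundant of the 9 per kilobase of exon. It is on the minus strand at chr9:44998740-45009627 (GRCm38; GENCODE), and its values were 45627, 25808 and 36304 in thymus replicates 1, 2 and 3, 41314, 46800 and 40033 in liver and 26606, 25652 and 28431 in spleen. Every liver library lay above every spleen library, and the thymus libraries spanned nearly the whole range. The means were 35913 ± 9916 in thymus, 42716 ± 3595 in liver and 26896 ± 1412 in spleen (SD, n = 3 each). In liver against spleen the log2 fold change was 0.67 (SE 0.19, 95% interval 0.25 to 1.08), with an unadjusted p of 0.00371 and an adjusted p of 0.99986 in the limma-trend fit. That p was the 42nd smallest of all genes in a comparison in which 2 genes passed. With limma's array weights, which count variable libraries less, Cd3e passed at a log2 fold change of 0.70 and an adjusted p of 0.0317. Against thymus the log2 fold change was 0.29 in liver (SE 0.19, adjusted p = 0.585) and -0.38 in spleen (SE 0.19, adjusted p = 0.464).

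Cd3g, the CD3 gamma gene, lies near Cd3e and is also on the minus strand, at chr9:44969572-44980431. Its values were 13131, 10508 and 8017 in thymus replicates 1, 2 and 3, 7278, 8838 and 8934 in liver and 6782, 6523 and 6709 in spleen. The 3 spleen libraries were the 3 lowest of the 9 and differed little among themselves, and thymus and liver overlapped. The means were 10552 ± 2557, 8350 ± 929 and 6671 ± 134 (SD, n = 3 each). The log2 fold change in spleen against thymus was -0.63 (SE 0.25, 95% interval -1.17 to -0.10), or -0.96 relative to the median gene. It did not pass, with an adjusted p of 0.333 (limma-trend, Benjamini-Hochberg). It was -0.31 (SE 0.25, adjusted p = 0.651) in liver against thymus and 0.32 (SE 0.25, adjusted p = 0.99986) in liver against spleen.

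Cd3d, the CD3 delta gene, sits back to back with Cd3g on the plus strand at chr9:44981786-44987339. It gave 1083, 5711 and 3619 in thymus replicates 1, 2 and 3, 2946, 3979 and 5747 in liver and 5890, 5276 and 5538 in spleen. The spleen libraries were close to one another, and the thymus libraries reached from the lowest value of all 9 to nearly the highest. The means were 3471 ± 2318, 4224 ± 1417 and 5568 ± 308 (SD, n = 3 each). The log2 fold change against thymus was 0.98 for the spleen (SE 0.49, 95% interval -0.05 to 2.01), with a limma-trend adjusted p of 0.448. For the liver it was 0.53 (SE 0.49, adjusted p = 0.703). Without thymus replicate 1, the library with the low value, they became 0.29 and -0.16.

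The start sites of Cd3g and Cd3d are 1355 bases apart and face away from each other, and that of Cd3e is a further 27825 bases from Cd3d. The 250 bases before each start are shown because these 3 neighbours, from 1 locus, gave different orders of the tissues. Capitals mark CACCTG, the E-box of E proteins, and AGGAAG, an ETS core, on either strand (CAGGTG and CTTCCT on the other). The sequences are RefSeq's on GRCm38.p6, written 5′ to 3′ on the gene's strand: chr9:44980432-44980681 (minus) for Cd3g, chr9:44981536-44981785 (plus) for Cd3d and chr9:45009612-45009861 (minus) for Cd3e.
Cd3g: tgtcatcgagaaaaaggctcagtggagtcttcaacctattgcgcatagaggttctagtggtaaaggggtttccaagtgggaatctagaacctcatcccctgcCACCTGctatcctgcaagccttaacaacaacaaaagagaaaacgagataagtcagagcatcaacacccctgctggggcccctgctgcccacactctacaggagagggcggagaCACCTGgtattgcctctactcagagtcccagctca
Cd3d: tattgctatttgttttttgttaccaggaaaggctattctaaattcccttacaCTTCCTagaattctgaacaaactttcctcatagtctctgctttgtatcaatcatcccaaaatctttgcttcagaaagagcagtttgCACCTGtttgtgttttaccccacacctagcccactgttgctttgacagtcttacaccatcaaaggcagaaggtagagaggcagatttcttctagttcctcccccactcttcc
Cd3e: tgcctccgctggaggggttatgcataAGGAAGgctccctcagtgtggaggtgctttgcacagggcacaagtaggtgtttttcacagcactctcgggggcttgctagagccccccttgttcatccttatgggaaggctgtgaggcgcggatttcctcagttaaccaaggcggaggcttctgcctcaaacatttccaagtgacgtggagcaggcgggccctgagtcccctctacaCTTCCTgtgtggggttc
The Cd3g window holds CACCTG at 2 places and AGGAAG at none, the Cd3d window holds each at 1 place, and the Cd3e window holds AGGAAG at 2 places and CACCTG at none. No marked motif overlaps another in these windows. Of the 9 genes, 8 had entries in the promoter table, with 11 windows, since Lck and Zap70 have several starts. CACCTG was in a window of 5 of the 8 (Cd3d, Cd3g, Cd247, Lck and Zap70), or 6 of 11 windows, and in 17.2% of all 32851 windows of this length. AGGAAG was in a window of 7 of the 8, all but Cd3g, or 9 of 11 windows, and in 29.5% of all windows. The RUNX core TGTGGT was found for 2 genes (14.0% of all windows), the GATA core AGATAA for 2 (9.99%), the TCF/LEF core CTTTGA for 3 (13.8%) and the GC box GGGCGG for 2 (32.7%), each searched on both strands. These matches describe letters in a window and were not tested against the expression values.

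Within a library, scaling cancels, so the ratio of the divergent pair can be read without it. The ratio of the Cd3d to the Cd3g value was 0.0825, 0.544 and 0.451 in thymus replicates 1, 2 and 3, 0.405, 0.450 and 0.643 in liver and 0.869, 0.809 and 0.825 in spleen. The 3 spleen libraries lay above the other 6 and close together, and thymus and liver overlapped. The means were 0.359 ± 0.244, 0.499 ± 0.127 and 0.834 ± 0.0308 (SD, n = 3 each). This ratio was examined after the values had been seen, and no test is given for it. Per kilobase of exon, Cd3d made up 24.6% to 26.6% of the summed level of the 4 CD3 chains in spleen, 11.0% to 19.6% in liver and 3.75% to 24.0% in thymus libraries. Cd3e made up 53.2% to 56.8% in spleen, 60.6% to 68.8% in liver and 48.2% to 70.2% in thymus libraries, and the lowest of these was in thymus replicate 2.

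**Figure D2:**
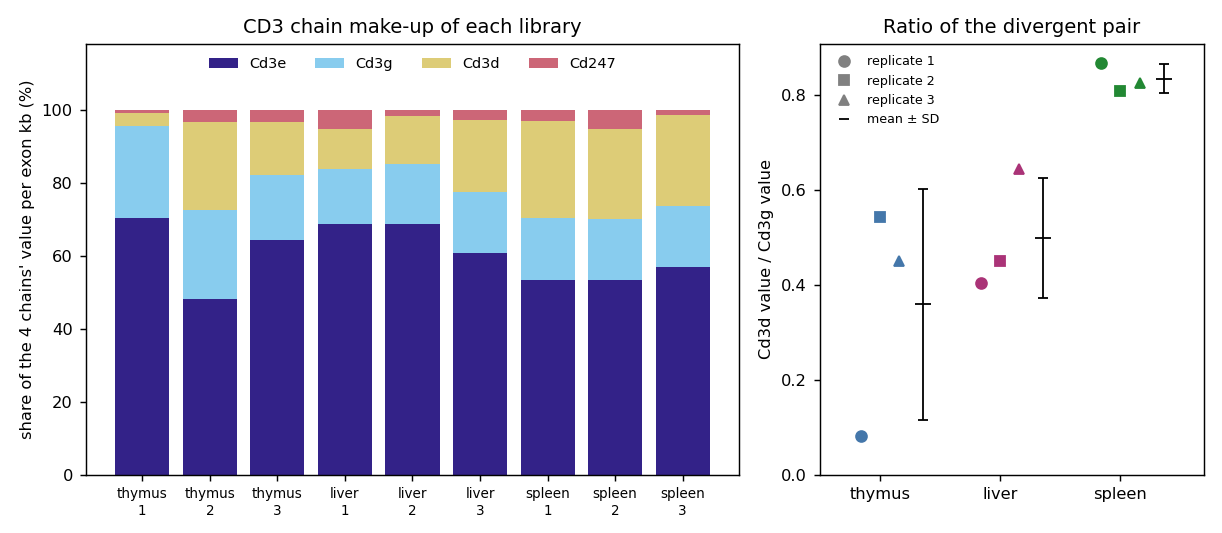
Left, the share (%) of each CD3 chain in the summed value per exon kilobase of the 4 chain genes, as stacked bars from 0 for the 9 libraries. Right, the ratio of the Cd3d to the Cd3g value by tissue, with symbols for replicates and mean ± SD in black. The 3 spleen libraries, from 0.809 to 0.869, lie above the other 6, of which the highest is 0.643.

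Cd247, at chr1:165788681-165877277 on the plus strand, encodes the zeta chain, which carries more tyrosine motifs than the other CD3 chains. Its values were 695, 2398 and 2581 in thymus replicates 1, 2 and 3, 4140, 1657 and 2544 in liver and 2029, 3318 and 1002 in spleen. The tissues overlapped throughout, and a different library was low in each. The means were 1891 ± 1040, 2781 ± 1258 and 2116 ± 1161 (SD, n = 3 each), and the 3 adjusted p-values of the limma-trend fit were 0.682, 0.920 and 0.99986 for liver against thymus, spleen against thymus and liver against spleen. Of its exon bases, 3007 (56.4%) are shared with Pou2f1 on the opposite strand. The sources used here do not say whether counting used the strand, so reads of the 2 genes may not be told apart and the Cd247 level is uncertain. The shares of the CD3 chains given above carry the same uncertainty. Pou2f1 itself had means of 2979 ± 1175 in thymus, 3092 ± 1239 in liver and 3932 ± 1201 in spleen.

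Cd4, at chr6:124864692-124888221 on the minus strand, had the largest spread of the 9 genes in the thymus. Its values were 2580, 7393 and 985 in thymus replicates 1, 2 and 3, 7921, 6440 and 6957 in liver and 5468, 6371 and 10054 in spleen. Thymus replicates 1 and 3 lay below all 6 liver and spleen libraries, while thymus replicate 2 lay among them. The means were 3652 ± 3336 in thymus, 7106 ± 752 in liver and 7298 ± 2429 in spleen (SD, n = 3 each). The log2 fold change was 1.41 in liver against thymus (SE 0.52, 95% interval 0.30 to 2.53) and 1.41 in spleen against thymus (SE 0.52, 95% interval 0.29 to 2.52), or 1.12 and 1.08 above the median gene. Neither passed (limma-trend, unadjusted p = 0.0162 and 0.0166, adjusted p = 0.309 and 0.309). Single thymus libraries decided the size of both. Without thymus replicate 2 both passed, at log2 fold changes of 2.15 (adjusted p = 0.0462) and 2.14 (adjusted p = 0.0367), and without thymus replicate 3 they were 0.70 (adjusted p = 0.402) and 0.69 (adjusted p = 0.412). Liver and spleen differed by a log2 fold change of 0.0063 (SE 0.52), with an interval of -1.11 to 1.12 that leaves room for a 2-fold difference either way. In these bulk libraries fewer CD4+ cells and less Cd4 RNA per cell cannot be told apart.

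Relative to the Cd3e value of the same library, Cd4 was 0.0565, 0.286 and 0.0271 in thymus replicates 1, 2 and 3. It was 0.192, 0.138 and 0.174 in liver and 0.206, 0.248 and 0.354 in spleen. Here too thymus replicates 1 and 3 were the lowest of the 9 libraries, thymus replicate 2 was higher than all but spleen replicate 3, and the spleen libraries lay above the liver libraries.

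Lck, the Src family kinase that begins TCR signalling, is at chr4:129548344-129573641 on the minus strand. It gave 7171, 5850 and 7112 in thymus replicates 1, 2 and 3, 9841, 8492 and 6445 in liver and 5731, 5637 and 5618 in spleen. The spleen libraries were the 3 lowest and nearly equal, and liver and thymus overlapped. The means were 6711 ± 746, 8259 ± 1710 and 5662 ± 60.3 (SD, n = 3 each). The log2 fold change was 0.28 (SE 0.26, limma-trend adjusted p = 0.701) in liver against thymus and -0.24 (SE 0.26, adjusted p = 0.753) in spleen against thymus. In liver against spleen it was 0.52 (SE 0.26, 95% interval -0.03 to 1.07, adjusted p = 0.99986).

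Zap70, which encodes the kinase recruited to phosphorylated CD3 chains, is at chr1:36761798-36782818 on the plus strand. Its values were 2757, 1662 and 2380 in thymus replicates 1, 2 and 3, 1274, 2378 and 2023 in liver and 3309, 1641 and 2733 in spleen, and all 3 tissues overlapped. The means were 2266 ± 556, 1892 ± 564 and 2561 ± 847 (SD, n = 3 each), and the 95% intervals of the log2 fold change were -1.18 to 0.63 in liver against thymus, -0.76 to 1.06 in spleen against thymus and -1.33 to 0.48 in liver against spleen. Each of these intervals spans 0, and the F-test gave an adjusted p of 0.887.

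Lat, the membrane adaptor gene at chr7:126363824-126369570 on the minus strand, gave 1819, 1491 and 2827 in thymus replicates 1, 2 and 3, 4320, 3353 and 2642 in liver and 7467, 2704 and 5240 in spleen. Its thymus values were low and overlapped the lowest value of each other tissue at 1 library, thymus replicate 3. The means were 2046 ± 696, 3438 ± 843 and 5137 ± 2383 (SD, n = 3 each). In spleen against thymus the log2 fold change was 1.26 (SE 0.42, 95% interval 0.37 to 2.15), or 0.94 above the median gene. It did not pass, with an adjusted p of 0.254 (limma-trend, Benjamini-Hochberg). In liver against thymus it was 0.77 (SE 0.42, adjusted p = 0.484), and in liver against spleen -0.49 (SE 0.42, adjusted p = 0.99986).

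Lcp2, the gene of the cytosolic adaptor SLP-76 at chr11:34046920-34092295 on the plus strand, was the steadiest of the 9 in thymus and liver. It gave 11209, 12932 and 11061 in thymus replicates 1, 2 and 3, 17958, 16863 and 15729 in liver and 11930, 12186 and 13941 in spleen. All 3 liver libraries lay above the other 6, and thymus and spleen overlapped. The means were 11734 ± 1040, 16850 ± 1115 and 12686 ± 1095 (SD, n = 3 each). The log2 fold change in liver against thymus was 0.52 (SE 0.20, 95% interval 0.10 to 0.95), with a limma-trend adjusted p of 0.318. In liver against spleen it was 0.41 (SE 0.20, 95% interval -0.01 to 0.83, adjusted p = 0.99986). The hepatocyte genes, summed above, were also highest in the liver libraries, and their part in this was not tested.

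**Figure D3:**
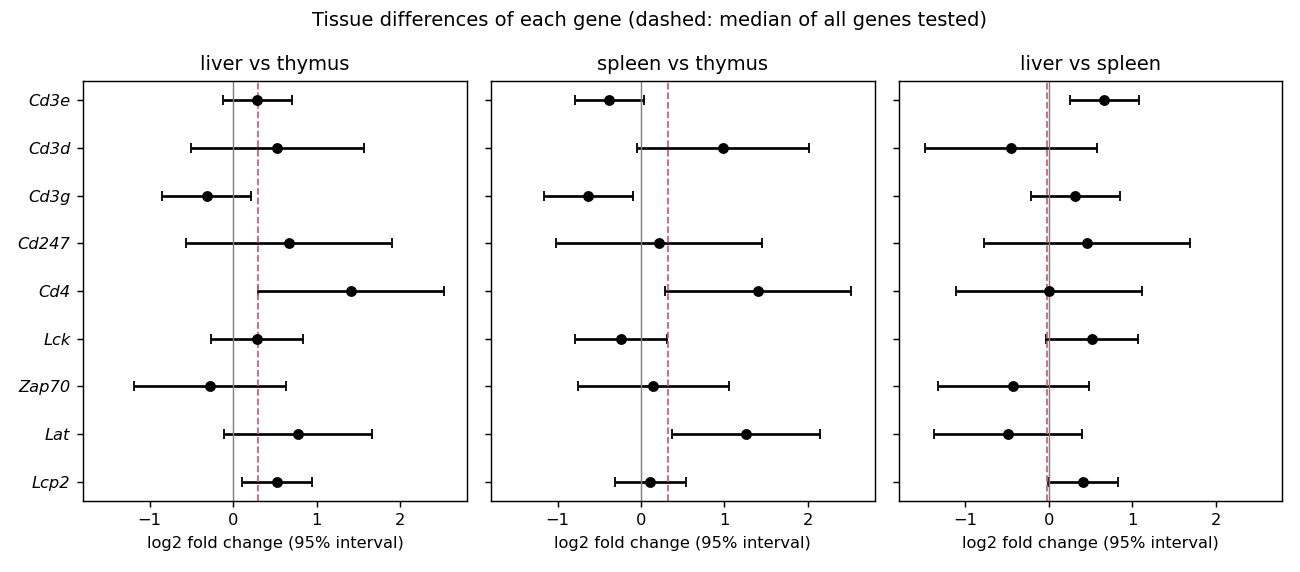
Log2 fold change (horizontal axis, log2(value + 1) scale) of each of the 9 genes in the 3 pairwise comparisons, from the limma-trend fit over 9 libraries. Points are estimates, bars are 95% intervals not adjusted for the number of genes, the grey line is 0 and the dashed line is the median of all 13309 genes. The intervals of Cd4 and Lcp2 in liver against thymus, of Cd3g, Cd4 and Lat in spleen against thymus and of Cd3e in liver against spleen do not span 0.

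Levels of different genes were compared per kilobase of exon, as the mean of the 3 tissue means. Cd3e was highest at 8621, and its lowest library, 6287, lay above the highest library of any other gene, 4027 for Lcp2. Lcp2 (3085), Cd3g (2608), Cd3d (2436) and Lck (2348) followed with overlapping ranges, so their order was not separated by the spread. Cd4 (1493) and Lat (1279) overlapped each other, with ranges of 244 to 2494 and 539 to 2699. Zap70 (749) and Cd247 (425) were the lowest and overlapped as well. With the bases shared with Pou2f1 left out of its length, Cd247 had means of 815 in thymus, 1197 in liver and 911 in spleen per kilobase. Its reads were not changed, so these means hold only if no read in the shared bases was counted, which is not known.

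The genes differed in how far replicates of a tissue lay apart. In thymus the coefficient of variation ran from 8.86% for Lcp2 to 91.3% for Cd4, with a median of 27.6% over the 9 genes. The median over the 3887 genes with a mean of at least 1000 was 43.8%. In liver the medians were 20.7% and 24.4%, and in spleen 8.63% and 24.8%. Spleen thus held both the lowest value, 1.06% for Lck, and values as high as 54.8%, for Cd247.

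Of the genes that neighbour the 9 on the chromosome, none passed the threshold in any comparison. Lag3, the gene next to Cd4, had means of 0.451, 10.5 and 129 in thymus, liver and spleen, far below Cd4 in every tissue, and Dock2, the measured gene nearest to Lcp2 on its far side, had means of 18088, 22289 and 19371. For Cd4, the genes with the most similar pattern over the 9 libraries were Asb2 (Pearson r = 0.963), Aurkaip1 (0.935), Pdia6 (0.934) and Hspa5 (0.923), of 8900 with a mean of at least 100. Asb2, like Cd4, was lowest in thymus replicate 3, at 114, and highest in spleen replicate 3, at 4166. For the mean log2 value of the 4 CD3 chains they were Inka2 (0.956), Crot (0.938), Grpel1 (0.938) and Nsrp1 (0.931). These are the highest of 8900 correlations over 9 points that share library and depth, and they are a description only.

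Around the 9 genes, 90 other genes of TCR signalling were followed in 6 lists, of which 89 were tested. In both comparisons with thymus 1 rose and 1 fell: Themis, a T cell adaptor gene needed for thymocyte selection, was higher in liver and spleen, and Ptpn6, the gene of the phosphatase SHP-1, which restrains TCR signalling, was lower. These 2 were 2.25% of the 89, where 0.323% and 0.398% of all genes passed in liver and in spleen against thymus. No gene of the lists passed in liver against spleen. DESeq2 on the recovered reads called 3, 6 and 1 of the 89 in liver against thymus, spleen against thymus and liver against spleen, or 3.37%, 6.74% and 1.12%, where it called 3.71%, 4.15% and 0.224% of all genes. In the same order edgeR called 0, 1 and 0 of the 89, or 0%, 1.12% and 0%, where it called 0.136%, 0.256% and 0.016% of all genes. At an unadjusted p under 0.05, 23.6% of the 89 were counted in liver against thymus, 25.8% in spleen against thymus and 3.37% in liver against spleen, where all genes gave 11.6%, 11.7% and 3.03%. The tissues did not overlap for 28.1%, 34.8% and 13.5% of them, where all genes gave 15.3%, 15.3% and 12.7%. All genes include many measured less closely, and the lists were chosen with earlier results of these data known. These shares are therefore a description and no test of the pathway. Their median log2 fold change was 0.015, 0.0014 and 0.013 in that order, against the 0.29, 0.33 and -0.02 of all genes in the same limma-trend fit.

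Themis gave 127, 1043 and 465 in thymus replicates 1, 2 and 3, 5756, 3685 and 4234 in liver and 5886, 3733 and 4353 in spleen. Every thymus library lay below every other, and liver and spleen overlapped. By the means the liver level was 8.36-fold and the spleen level 8.55-fold that of thymus, with log2 fold changes of 3.50 (SE 0.60, limma-trend adjusted p = 0.0197) and 3.53 (SE 0.60, adjusted p = 0.0151). Each passed in 16 of 21 alternatives, which for the list genes were added after their values were seen. With edgeR on the recovered reads the adjusted p-values were 0.0612 and 0.0524. Leaving out any single liver library gave adjusted p-values of 0.0932 to 0.140 in liver against thymus, and leaving out any single spleen library gave 0.0683 to 0.104 in spleen against thymus. Themis is also on the list of immature thymocyte markers, where Rag1 and Dntt had at most 1 read in every library but thymus replicate 3. On the same list, Cd8a had 1283, 170 and 14 reads in liver replicates 1, 2 and 3 and 0, 0 and 205 in thymus. Arpp21 had means of 52.9 in thymus, 0.235 in liver and 1.54 in spleen, and Cd8b1 15.2, 21.0 and 8.81. The part of other cells in the Themis values was not tested.

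Ptpn6 gave 16256, 12080 and 10409 in thymus replicates 1, 2 and 3, 4229, 3444 and 3829 in liver and 3417, 1692 and 2319 in spleen. Here all thymus libraries lay above all others, and each spleen library lay below each liver library. Thymus was 3.37-fold above liver and 5.22-fold above spleen by the means, with log2 fold changes of -1.73 (SE 0.32, limma-trend adjusted p = 0.0292) and -2.42 (SE 0.32, adjusted p = 0.00332). In spleen against thymus it passed in 21 of 21 alternatives, and in liver against thymus in 12 of 21, with an adjusted p of 0.121 to 0.188 without any single liver library, 0.0769 without thymus replicate 1, 0.0523 without thymus replicate 2, 0.0506 without spleen replicate 3, 0.0557 with edgeR, 0.0506 with only the 6 libraries compared and 0.296 with only the libraries numbered 1 and 3. Over the 21 alternatives its log2 fold change in liver against thymus ran from -1.87 to -1.55. The myeloid marker sum was also highest in thymus libraries, where most of it was Fcer1g. That gene was at 3191 to 6967 in thymus, 189 to 1960 in liver and 237 to 1079 in spleen. Itgax also had its highest mean in thymus, 150 against 102 in liver and 29.8 in spleen. Lyz2, Csf1r and Itgam had lower means in thymus than in either other tissue. Lyz2 and Csf1r were at or below 12.6 in the thymus libraries. The natural killer sums of thymus and liver overlapped, and those of spleen lay below every thymus sum. Gzma, Klri2 and Klra8 had higher means in thymus (4770, 1109 and 233) than in liver (1435, 409 and 35.4) and spleen (350, 85.5 and 5.20). Ncr1 and Eomes had their highest means in liver, and Ncr1 had no read in any thymus library. Whether these myeloid and natural killer list genes were expressed by the iNKT1 cells or by other cells was not tested. Nor was the part of any other cells in the Ptpn6 values.

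**Figure D4:**
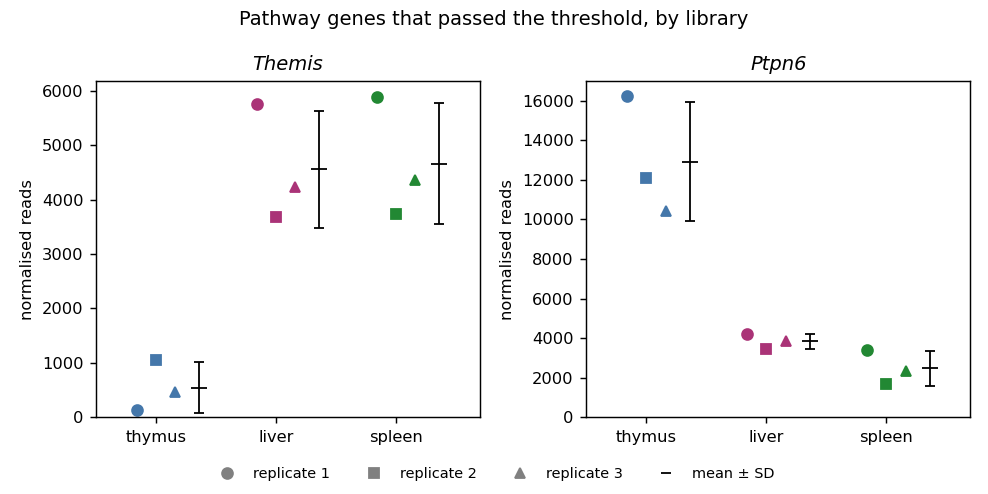
Normalised reads (axes from 0) of Themis and Ptpn6 in the 9 libraries, by tissue, with symbols for replicates and mean ± SD in black. All thymus values of Themis, 127 to 1043, lie below those of liver and spleen, and all thymus values of Ptpn6, 10409 to 16256, lie above them.

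In the other lists no gene passed in the limma-trend fit, and the values that follow are for the genes with the smallest F-test p. Among the TCR constant chains and CD8 genes, 3 of 5 had an unadjusted p under 0.05 with a higher value in liver than in thymus, and 1 with a lower value, where 11.6% of all genes had such a p. Trbc2 and Trbc1, the beta chain constant genes, had log2 fold changes of 0.58 (SE 0.25, limma-trend adjusted p = 0.379) and 0.74 (SE 0.29, adjusted p = 0.328) in that comparison. Cd8a was listed at 0 in the 3 spleen libraries, at 1116, 146 and 85.8 in liver and at 257 in thymus replicate 3, with no read in thymus replicates 1 and 2. DESeq2 on the recovered reads called Cd8a in spleen against thymus (adjusted p = 1.89e-07), a difference that rests on the reads of thymus replicate 3. Among the accessory receptors, Itgal, the LFA-1 alpha chain gene, had means of 27480 ± 4849 in thymus, 44611 ± 4211 in liver and 36275 ± 3289 in spleen, with an adjusted p of 0.129 in liver against thymus (limma-trend). Cd7 and Cd6 had higher means in thymus, 4697 ± 2633 against 1535 ± 269 in liver and 1075 ± 710 in spleen for Cd7, and 5298 ± 875 against 2856 ± 803 and 2218 ± 702 for Cd6. Their limma-trend adjusted p-values against thymus were 0.308 and 0.118 for Cd7, and 0.346 and 0.181 for Cd6. DESeq2 called both in spleen against thymus, at log2 fold changes of -2.16 (adjusted p = 0.00618) and -1.30 (adjusted p = 0.0179).

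Of the 13 kinases, phosphatases and ligases, Ptpn6 was the 1 that passed. In liver against thymus, 3 of them were higher and 3, Ptpn6 included, lower at an unadjusted p under 0.05, which 11.6% of all genes reached. Of the 24 adaptors tested, Themis was the 1 that passed. Of the 24 genes of the downstream branches none passed, and 12 had a positive and 12 a negative log2 fold change in either comparison with thymus. Rasgrp1, which activates Ras, had means of 14353 ± 1635 in thymus, 21064 ± 2867 in liver and 19543 ± 2966 in spleen, and its adjusted p-values against thymus were 0.306 and 0.412 (limma-trend). The calcium sensor genes of the endoplasmic reticulum lay in opposite order, with Stim2 at 513 ± 272, 1387 ± 476 and 1091 ± 48.6 and Stim1 at 2278 ± 1252, 1192 ± 444 and 720 ± 161 in thymus, liver and spleen. None of these differences passed in the limma-trend fit, with adjusted p-values against thymus of 0.317 and 0.426 for Stim2 and 0.603 and 0.326 for Stim1. DESeq2 called Stim1 in spleen against thymus at a log2 fold change of -1.71 (adjusted p = 0.0439). Of the 13 transcription factors none passed. Runx1 and Lef1 had lower means in thymus (3273 ± 1703 and 1934 ± 978) than in spleen (6515 ± 1501 and 4213 ± 1183), with adjusted p-values of 0.311 and 0.290, and Satb1 was at 27397 ± 3817 in thymus and 19618 ± 3041 in spleen (adjusted p = 0.342).

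**Figure D5:**
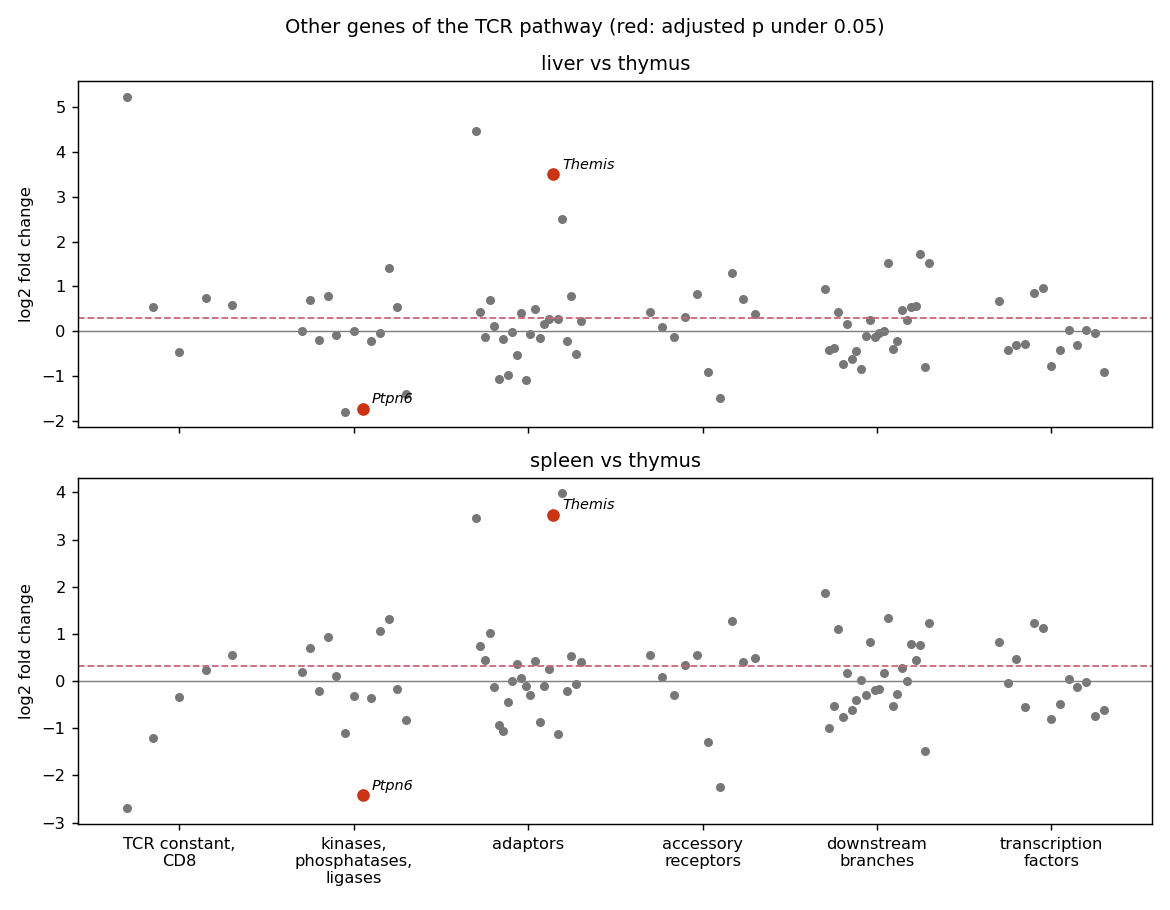
Log2 fold change (vertical axis, log2(value + 1) scale) of each of the 89 tested genes of the 6 lists, in liver against thymus (top) and spleen against thymus (bottom). Each point is 1 gene, red with its name where the adjusted p was under 0.05, and the dashed line is the median of all genes. Themis, at 3.50 and 3.53, and Ptpn6, at -1.73 and -2.42, are the red points, and grey points as far from 0 did not pass.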

How the data were processed

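RNA-seq of total RNA was sequenced for 76 cycles, per the labels' protocols. The submitters' processing notes list Trimmomatic 0.33, TopHat2 2.1.0, HTSeq 0.6.1, edgeR and the mm10 build, with no settings. The authors' deposited values are normalised read counts, treated as a signal because they are not whole numbers. Reads were recovered from the step of each library's low values, and 93.5% of the 15737 values at or below 20 reads fell on a whole read within a tolerance of 0.1 (72.9% in liver replicate 3). The plan for counts was replaced by its stated alternative for normalised values: limma-trend (limma 3.58.1, R 4.3.3) on log2(value + 1) of the genes that reached 1 in 3 or more libraries, all 9 libraries in 1 fit with a term per tissue, two-sided, Benjamini-Hochberg adjustment over 13309 genes, threshold 0.05. The script was tested on simulated data. Alternatives were rescaling, filters, pseudocounts, subsets of libraries, array weights, a block, and edgeR 4.0.16 and DESeq2 1.42.0 on recovered reads. Symbols matched 13359 of 14004 identifiers. Exon lengths and coordinates came from GENCODE M21 and promoters from RefSeq. The column of thymus replicate 2 has an additional letter in its prefix that the labels do not explain. The 9 genes and the lists were chosen with earlier results of these data known. The text names all 9 genes, list genes past the threshold or, failing that, the 3 with the smallest F-test p, and the 4 genes most like Cd4 and the CD3 mean. Promoters were to be shown where genes moved together; the 3 shown were chosen after their values were seen. One marker gene is not reported here and was left out of its list.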

Additional observations from a re-analysis of the deposited data

How the results depend on the processing

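Over 21 alternatives of the 27 gene-by-comparison differences, 549 of 567 values kept their sign and their side of the threshold, 15 changed sign, 3 passed newly and 0 were lost. None could be lost, since none had passed. Filters, the block, a fit of only the libraries compared and leaving out a library of the third tissue cannot change a log2 fold change. The count of kept signs is therefore not a measure of robustness. Among the 9 genes, 1 passed in liver against thymus and 1 in spleen against thymus without thymus replicate 2 (Cd4 in both), and array weights gave 1 in liver against spleen and 1 in the F-test (Cd3e in both). Leaving out each library in turn gave 0 to 1 in either comparison with thymus and 0 in liver against spleen and the F-test. All changes of sign were in values that had not passed. With the libraries numbered 1 and 3 alone, Cd3e in liver against thymus became -0.0011. Array weights gave -0.041 for Cd247 in spleen against thymus and -0.155 for Cd4 in liver against spleen, where Cd4 was also -0.012 with equal totals, -0.032 with edgeR and -0.021 with DESeq2. Leaving out 1 library at a time, the log2 fold change ran from -0.16 (without thymus replicate 1) to 1.04 for Cd3d in liver against thymus. In spleen against thymus it ran from -0.40 (without thymus replicate 1) to 0.67 for Cd247, from -0.066 (without spleen replicate 1) to 0.44 for Zap70 and from -0.060 (without thymus replicate 1) to 0.48 for Trbc1. In liver against spleen it ran from -0.00013 (without spleen replicate 3) to 0.86 for Cd247 and from -0.18 (without spleen replicate 1) to 0.26 for Cd4. The cause was not tested. DESeq2 called 480, 537, 29 and 376 of all genes in liver against thymus, spleen against thymus, liver against spleen and the F-test, edgeR 17, 32, 2 and 31, and limma-trend 43, 53, 2 and 46, and by none of these tools was any of the 9 genes called. Same-numbered libraries of different tissues had correlations of their deviations of -0.0229 to 0.0957, none above 0.1. The labels give no shared source, so they were not treated as pairs. In 14 of 18 matches, each to 1 of the 3 libraries of another tissue, a library correlated best with its own number. The matches reuse the same correlations and were not tested. The libraries numbered 2 also shared high Xist and few Y-linked reads, and whether same-numbered libraries share anything else was not tested. With the replicate number as a block, 42, 55, 4 and 45 genes passed and 0 of the 9. With 3 libraries per tissue, and liver replicate 3 at 3877694 reads, a difference that did not pass is not shown to be absent. The intervals given hold the sizes that these data leave possible.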
